A study of Homo sapiens with 36 samples.

Results

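The nuclear-encoded subunits of the respiratory chain were followed through 5-fluorouracil treatment in HCT116 cells. They were chosen by name among protein-coding genes, taking NDUFA, NDUFB, NDUFC, NDUFS and NDUFV genes with a number, SDHA to SDHD, UQCR genes, COX4 to COX8 genes, and ATP5F, ATP5M and ATP5P genes. This gave 78 of the 15891 genes in the table, of which 12399 were protein-coding: 36 of complex I, 4 of complex II, 9 of complex III, 12 of complex IV (NDUFA4 was counted there) and 17 of complex V. A further 18 matching symbols were not protein-coding and were left out, 15 of them pseudogenes, and 10 protein-coding symbols of the rule were not in the table and were not analysed here (ATP5MF-PTCD1, ATP5MGL, COX4I2, COX6A2, COX6B2, COX7A1, COX7B2, COX8C, NDUFA4L2 and NDUFC2-KCTD14). HCT116 is a human colorectal carcinoma line, and 5-fluorouracil (5-FU) is a pyrimidine analogue used against this cancer. The labels give 10 µM 5-FU over 48 h. The first collection (D0) came before the drug, and the later ones on days 1, 2, 7, 14 and 16 are called D1 to D16. All cells were exposed briefly to emetine, which halts ribosomes on mRNA, before harvest. Each collection gave a heavy polysomal pool, the gradient fractions whose mRNA carried more than 3 ribosomes, and cytoplasmic RNA, both sequenced as polyadenylated RNA in 3 libraries with the batch letters A, B and C, so that there were 12 groups and 36 libraries. No untreated culture of a later day was among the samples, so the drug and the time in culture cannot be told apart. Whether each letter was a culture of its own is not stated, and the p-values therefore measure the spread between these libraries.

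The respiratory chain passes electrons from NADH (complex I) and succinate (complex II) through complex III to oxygen at complex IV, and the proton gradient that this builds drives ATP synthesis by complex V. Most subunits are encoded in the nucleus, translated on cytosolic ribosomes and imported, while a small set is encoded in mitochondrial DNA and made by ribosomes inside the organelle. The subunits that carry the flavin, iron-sulphur and nucleotide-binding sites are mostly long proteins, whereas many accessory and membrane subunits are very small.

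Library depth ran from 41.0 to 103.6 megareads (median 48.8). The values are the authors' normalised counts (reads of a gene over the size factor of the library), and differences are given on the log2(value + 1) scale. The table held 6 of 9 epithelial markers (CDH1, CDX2, EPCAM, KRT8, KRT18 and KRT19), with a summed cytoplasmic level of 264599 to 938276, and 3 of 19 markers of other cell types (COL1A1, HBA1 and ITGAM), with a summed level of 378 to 1393. A pair of cytoplasmic libraries stood apart. The chain's median stood 1.77 log2 units above the D0 mean in the D7 library of letter A, against 0.45 and 0.73 in letters B and C, and 1.05 above in the D2 library of letter A, against -0.14 and -0.19. Letter A was also the highest at D1 (0.78, against 0.45 and -0.01 in letters B and C) and at D0 (0.20, against -0.04 and -0.18). Ribosomal protein mRNAs took 22.8% of the D7 library of letter A, and 14.8% and 16.0% of the other two. All 78 members passed the low-value filter in every comparison. Of these, 14 share coding exons with a readthrough or overlapping gene on the same strand (NDUFA7, NDUFA9, NDUFA11, NDUFA13, NDUFB8, NDUFC2, NDUFV2, SDHD, UQCR11, COX6A1, COX8A, ATP5MF, ATP5MG and ATP5PO), so their reads may be divided. The 12 members with over 50% of their coding bases shared had a median level per kilobase of exon of 130.4 at D0 in the cytoplasm. For all other members, NDUFA11 among them, it was 2401.9. A pseudogene of 15 members was listed as well, UQCRHL is a near copy of UQCRH, and SDHA has near-identical copies elsewhere in the genome, so these levels are uncertain too.

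The reading frames of 3 of the smallest subunits are shown because their mRNAs were among those that moved most between the fractions and days below. They are ATP5F1E, the epsilon subunit of the ATP synthase rotor (chr20:59030306-59032251, minus strand, 51 codons, the shortest of the 78), ATP5MK, a membrane subunit of the same enzyme (chr10:103392194-103392457, minus strand, 58 codons), and UQCR10, a small subunit of complex III (chr22:29767399-29769719, plus strand, 63 codons). Coordinates span the coding exons in GRCh38 with the GENCODE 29 annotation, introns are left out of the sequence, and the start and stop codons are in capitals.
ATP5F1E: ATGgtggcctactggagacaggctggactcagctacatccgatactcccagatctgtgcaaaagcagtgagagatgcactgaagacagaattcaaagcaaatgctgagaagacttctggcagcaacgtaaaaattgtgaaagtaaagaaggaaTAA
ATP5MK: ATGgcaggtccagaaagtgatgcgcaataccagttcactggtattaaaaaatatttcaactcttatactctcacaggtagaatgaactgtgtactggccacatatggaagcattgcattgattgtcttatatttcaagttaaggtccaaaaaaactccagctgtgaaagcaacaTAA
UQCR10: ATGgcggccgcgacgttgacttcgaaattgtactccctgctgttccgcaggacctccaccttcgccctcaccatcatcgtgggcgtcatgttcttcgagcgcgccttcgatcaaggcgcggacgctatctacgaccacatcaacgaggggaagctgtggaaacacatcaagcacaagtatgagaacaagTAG

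Before the drug, the chain took 1.06% ± 0.02 of the heavy pool and 1.15% ± 0.08 of the cytoplasmic libraries (SD, n = 3 each). Levels of single members, as cytoplasmic normalised counts per kilobase of exon, differed widely within each complex. In complex I they ran from 8.14 for NDUFA7 to 26249 for NDUFS5, and in complex V from 191 for ATP5MG to 23222 for ATP5F1B, the catalytic beta subunit. Complex II had SDHB, its iron-sulphur subunit, at 3252 and SDHA, its flavoprotein, at 58.1. Complex III ran from 425 for UQCR11 to 11105 for UQCRH, and complex IV from 769.9 for COX6A1 to 9956 for COX6B1. The low end of complexes I, III, IV and V was thus held by members that share coding exons.

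In the heavy pool at D14, the chain divided into many short mRNAs that were higher than at D0 and a smaller number of long ones that were lower. Here and below, coding length is that of the longest annotated isoform of each gene. Which isoform these cells expressed was not tested, so lengths such as those of NDUFA10 and NDUFV3 may be too high. A relation of this D14 change with coding length was also present outside the chain. Spearman rho was -0.82 over the 78 members and -0.44 over 12311 other protein-coding genes. Of the 78 members, 50 rose and 18 fell, at an adjusted p under 0.05 in limma over all genes tested, and 10 did not pass. Over all genes 72% were called, 34.4% higher and 37.6% lower, and 87.2% of the members were called. In these bulk libraries fewer cells of a kind and less RNA per cell cannot be told apart. The median difference was 0.56 log2 units for the members and -0.02 for all genes. The median of the members stood at 0.50, 0.62 and 0.53 above the D0 mean in letters A, B and C. With libraries scaled to equal totals, 57 rose and 15 fell, with 71.4% of all genes called. The median over all genes then moved to 0.30 and that of the members to 0.88.

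**Figure D1:**
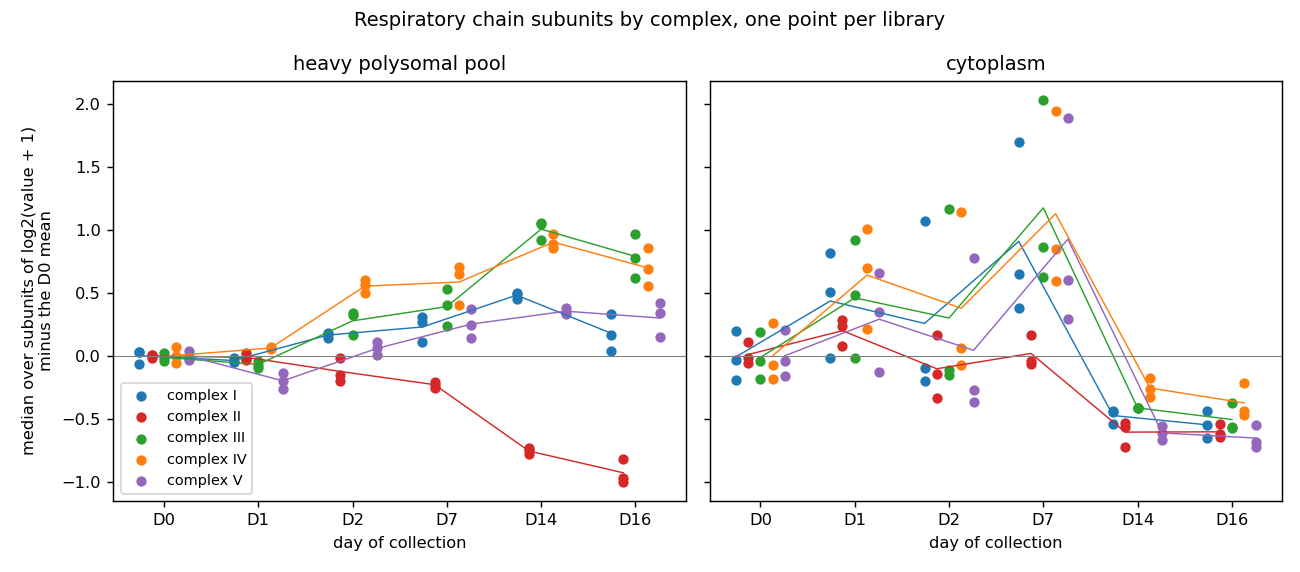
Median over the subunits of each complex of log2(value + 1) minus the mean of D0, for each library (points, letters A, B and C) on the 6 days, with the heavy pool on the left and the cytoplasm on the right. In the heavy pool complex II went down to between -0.78 and -0.73 at D14 while complexes III and IV stood between 0.86 and 1.06. In the cytoplasm the D7 library of letter A lies above those of letters B and C for each complex, by least for complex II (0.17, against -0.06 and -0.04).

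The subunits that fell at D14 included several with catalytic or electron-carrying parts. SDHA had 339, 234 and 233 normalised counts in letters A, B and C of the D14 heavy pool, against 907, 1052 and 1065 at D0, a log2 difference of -1.92 ± 0.15 SE, adjusted p = 2.05e-10. All D14 libraries lay below all D0 libraries. ATP5F1B, which holds the catalytic sites of the ATP synthase, had 37584, 36203 and 35348 at D14, against 113176, 115849 and 121496 at D0 (-1.68 ± 0.09 SE, adjusted p = 4e-13). Its partner in the catalytic head, ATP5F1A (alpha), had 18138, 17214 and 17787 at D14, against 50878, 51740.4 and 53694 at D0 (-1.56 ± 0.09 SE, adjusted p = 2.31e-12). In both genes too the D14 libraries lay below all D0 libraries. UQCRC1, a core protein of complex III, had 10808, 10445 and 9440.0 at D14, against 28087, 30355 and 31187 at D0 (-1.55 ± 0.10 SE, adjusted p = 1.28e-11). The core subunits of complex I that fell included NDUFS1 (-1.27 ± 0.11 SE), NDUFV1, which binds NADH (7434, 7609 and 7425 at D14, against 14373, 15794 and 14872 at D0), NDUFS7 (-0.44 ± 0.11 SE) and NDUFS3 (-0.30 ± 0.09 SE). With libraries scaled to equal totals NDUFS7 stood at -0.12 and lost its call, and NDUFS3 stood at 0.02. Other core subunits of complex I did not fall. NDUFS8 had a mean of 5572 ± 487 at D14, against 4722 ± 233 at D0 (SD), and NDUFV2, described below, rose (1.93). In complex III the second core protein UQCRC2 (-0.89 ± 0.10 SE) and the Rieske iron-sulphur protein UQCRFS1 (-0.33 ± 0.08 SE) fell as well, but UQCRFS1 lost its call with equal totals.

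**Figure D2:**
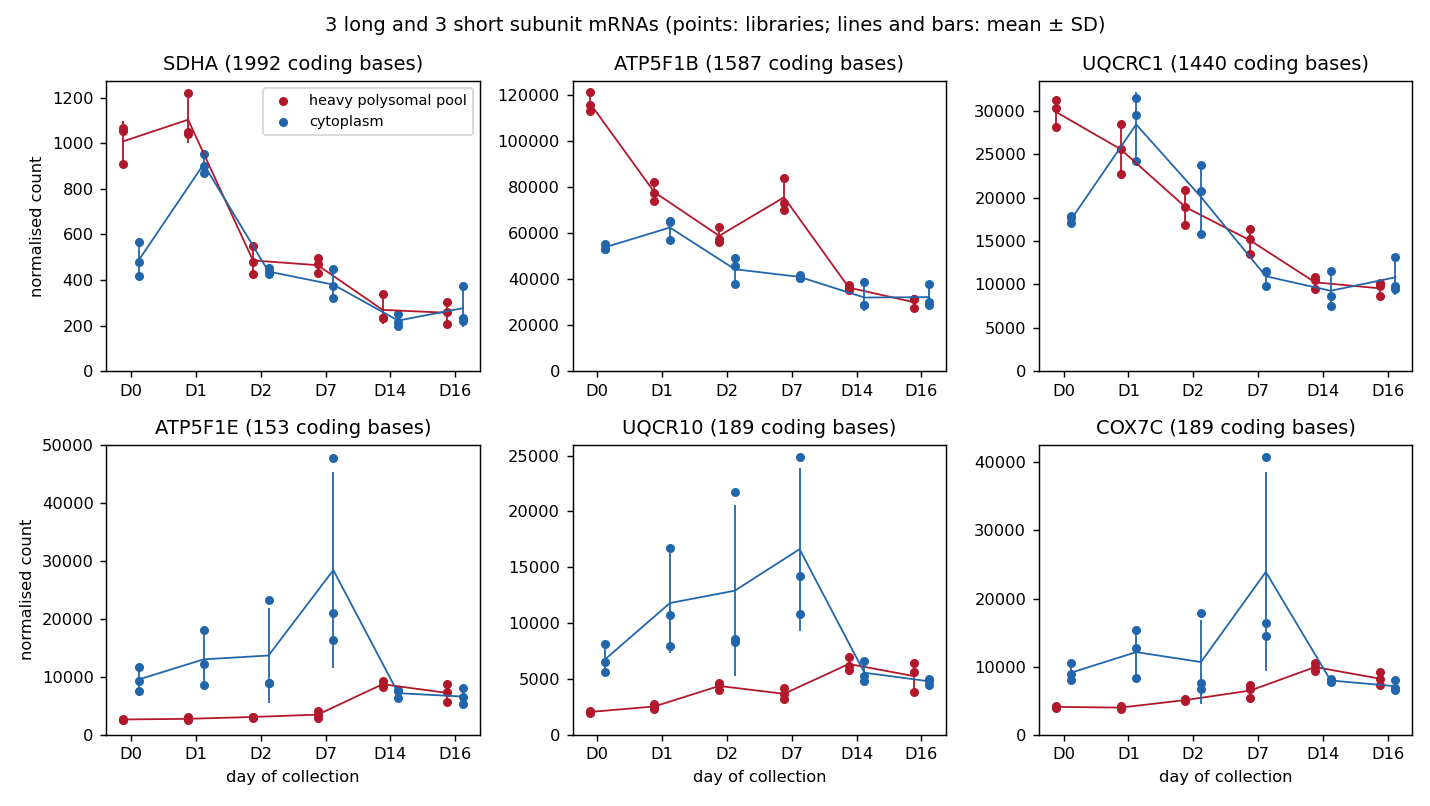
Normalised counts on the 6 days for 3 long members (SDHA, ATP5F1B and UQCRC1) and 3 short ones (ATP5F1E, UQCR10 and COX7C), with points for the libraries and the mean ± SD of the 3 libraries of each group, for the heavy pool and the cytoplasm. The long members were lower at D14 than at D0 in both fractions, and the short members were higher at D14 in the heavy pool.

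Apart from NDUFV2, the 5 largest rises at D14 were of small subunits. ATP5F1E had 8540.4, 9347 and 8292 normalised counts at D14, against 2629, 2759 and 2542 at D0 (1.72 ± 0.13 SE, adjusted p = 7.27e-11). ATP5MK had 5782, 6313 and 6589.6 at D14, against 2489, 2439 and 2176 at D0 (1.40 ± 0.12 SE, adjusted p = 5.19e-10). UQCR10 had 5826, 6999.6 and 6200.2 at D14, against 1979, 2125 and 2013 at D0 (1.63 ± 0.14 SE, adjusted p = 5.66e-10). In each of these 3 genes the lowest D14 library was over 2 times the highest D0 library. ATP5MG, a small subunit of the membrane part of the ATP synthase, had 785, 737 and 833 at D14, against 248, 238 and 215 at D0 (1.74 ± 0.16 SE, adjusted p = 1.91e-09), and UQCR11, a complex III subunit, had 741, 1081 and 855 at D14, against 298, 323 and 378 at D0 (1.41 ± 0.17 SE, adjusted p = 9.66e-08). Both share coding exons with another gene. NDUFV2 had the highest difference of all members (1.93 ± 0.24 SE), but at 86.7, 96.6 and 90.8 normalised counts, against 27.3, 16.7 and 27.4 at D0, its level was low, and it also shares coding exons.

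The counts by complex are a description, and differences between complexes were not tested. Median coding length was 502.5 bases in complex I, 673.5 in II, 273 in III, 292.5 in IV and 426 in V. The longest member had 507 coding bases in complex IV and 1992 in complex II. Of the 21 members under 300 coding bases 20 rose at D14 and 0 fell, and all 10 with 1200 or more fell. Over all genes 34.4% rose and 37.6% fell, and the shares among other genes of these lengths are not given here. The part of coding length in the counts by complex was not tested. In complex IV 12 of 12 rose at D14, from 0.40 ± 0.17 SE for COX6A1 to 1.38 ± 0.09 SE for NDUFA4. COX4I1, the largest nuclear subunit of cytochrome c oxidase, had 30569, 33156 and 33099 at D14, against 23452, 24965 and 24931 at D0 (0.40 ± 0.09 SE, adjusted p = 0.000468). COX7C had 9359.6, 10520.4 and 9954 at D14, against 4275, 4073 and 3949 at D0 (1.28 ± 0.10 SE, adjusted p = 1.5e-10). In complex I 23 of 36 rose and 8 fell, in complex III 6 of 9 rose and 3 fell, and in complex V 9 of 17 rose and 4 fell. Complex II had no rise, with 3 of 4 lower. SDHB had 6526, 6519.6 and 6480.5 at D14, against 12411, 12485 and 12881 at D0 (-0.95 ± 0.09 SE, adjusted p = 1.51e-09). The membrane anchor SDHC fell (-0.56 ± 0.08 SE), and the other anchor, SDHD, had 1793, 1721 and 1928 at D14, against 1906, 1725 and 1687 at D0, and did not pass the test.

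**Figure D3:**
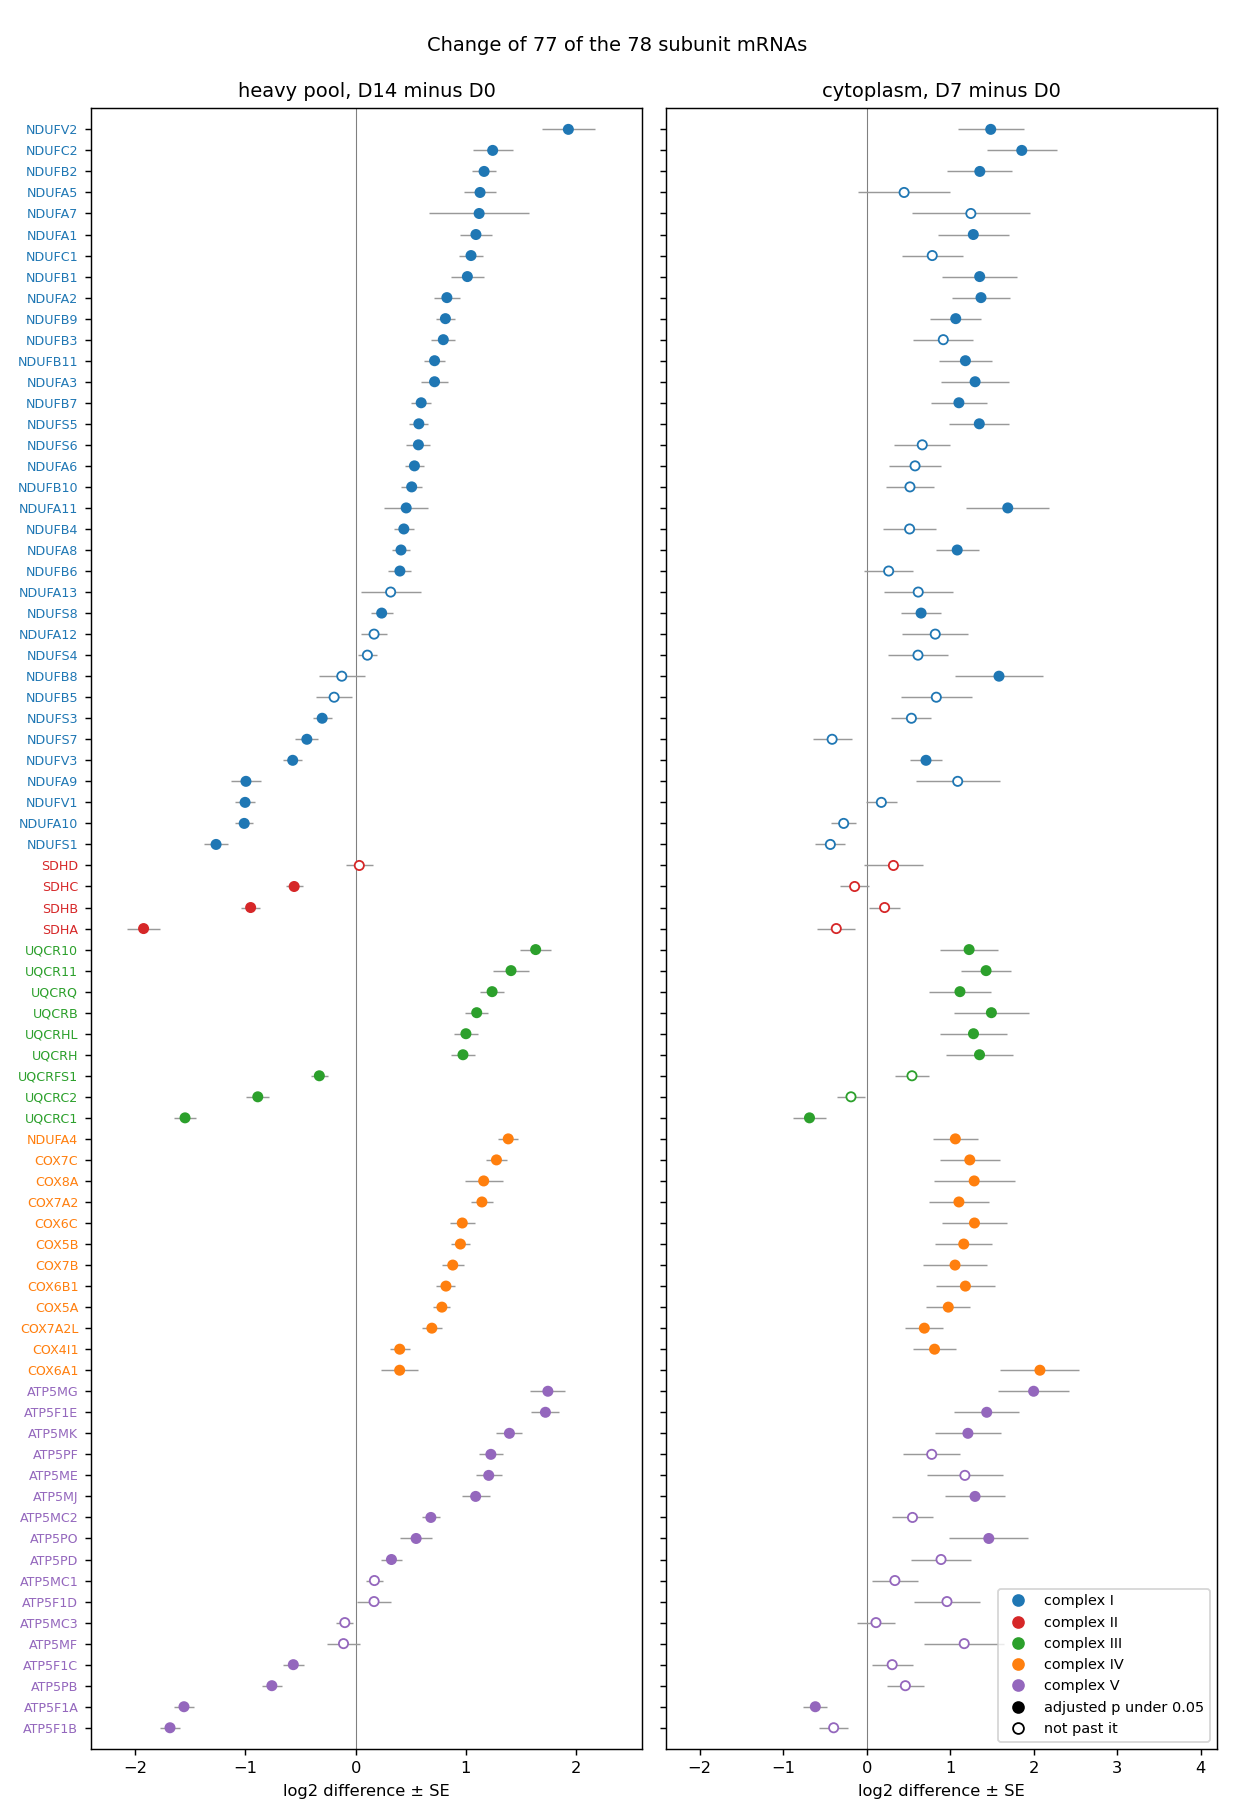
Log2 difference (± SE) of 77 of the 78 members, grouped by complex, in the heavy pool at D14 against D0 (left) and in the cytoplasm at D7 against D0 (right), with filled points at an adjusted p under 0.05. Over all 78, 50 rose and 18 fell in the heavy pool, and 39 rose and 3 fell in the cytoplasm.

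The earlier days of the heavy pool had smaller numbers of calls. At D1, 7 of 78 members rose and 18 fell, where 47% of all genes were called. Scaling to equal totals turned this to 23 higher and 8 lower, with 45.6% of all genes called. Among the falls at D1 were ATP5MC2, a gene for the membrane ring subunit c (-0.79 ± 0.08 SE, adjusted p = 4.47e-08), the complex I subunit NDUFA10 (-0.73 ± 0.08 SE) and ATP5F1B (-0.59 ± 0.09 SE). NDUFA5, an accessory subunit of complex I, rose and had 2601, 2103 and 3438 at D1, against 1273, 1253 and 1285 at D0 (1.07 ± 0.15 SE, adjusted p = 4.52e-06). At D2, 33 members rose and 17 fell, with 64.9% of all genes called, and with equal totals 57 rose and 11 fell, with 68.8% called. All 10 members with a coding length of 1200 bases or more fell at D2, where 34.5% of all genes fell. Of these members, NDUFV3 stood at 0.12 and NDUFV1 at -0.03 with equal totals, without a call. NDUFA10 had 4184, 4223 and 4888 at D2, against 10609, 10866 and 11288 at D0 (-1.30 ± 0.08 SE, adjusted p = 6.38e-12), and NDUFS1, the largest subunit of complex I, had 2543, 2252 and 2670.3 at D2, against 6315, 5616 and 6019 at D0 (-1.27 ± 0.11 SE, adjusted p = 6.58e-10). UQCR10 had 4017, 4631 and 4472 at D2 (1.10 ± 0.14 SE), so that all D2 libraries lay above the D0 values given before.

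At D7, 43 members rose and 11 fell in the heavy pool, with 63.5% of all genes called. SDHA had 468, 429 and 497 at D7 (-1.11 ± 0.15 SE, adjusted p = 1.41e-06), and NDUFS7, an iron-sulphur subunit of complex I, had 2918, 3135 and 2801 at D7, against 4858, 5053 and 5433 at D0 (-0.79 ± 0.11 SE, adjusted p = 9.34e-07). In complex IV 11 of 12 rose, among them NDUFA4, which had 4976, 5237 and 4660.4 at D7, against 2697, 2719 and 2326 at D0 (0.94 ± 0.09 SE, adjusted p = 9e-09). At D16, 41 rose and 20 fell, with 72.8% of all genes called, and with equal totals 57 rose and 16 fell, with 75.2% called. ATP5F1B had 31267, 31399.6 and 27407 at D16 (-1.96 ± 0.09 SE, adjusted p = 2.19e-14), SDHA 302, 262 and 205 (-1.99 ± 0.15 SE) and UQCRC1 10112, 9856 and 8650.3 (-1.65 ± 0.10 SE), all below their D0 libraries. ATP5F1E had 7379, 5593 and 8679 at D16 (1.43 ± 0.13 SE, adjusted p = 1.15e-09) and was above its D0 libraries in each letter. The heavy pool of D14 was also set against that of D7. Against D7, 30 members rose and 20 fell at D14, with 58.4% of all genes called. ATP5F1E had 8540.4, 9347 and 8292 at D14, against 3464, 4059.9 and 2912 at D7 (1.34 ± 0.13 SE, adjusted p = 1.29e-08), and NDUFC1, an accessory subunit of complex I, had 3928, 4244 and 3731, against 1755, 1988 and 1675 (1.14 ± 0.11 SE, adjusted p = 1.85e-08). ATP5F1B had 37584, 36203 and 35348 at D14, against 70014, 73081 and 83894 at D7 (-1.05 ± 0.09 SE, adjusted p = 2.34e-09). An F test over the 5 later days called 77 of 78 members, where 95.1% of all genes were called. The member that did not pass was SDHD, although the single comparisons with D0 called it higher at D2 (0.28) and at D16 (0.29).

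The cytoplasm showed another course, with a peak at D7. At D1, 6 of 78 members rose and 0 fell, with 17.9% of all genes called. With the letters as a block, 14 were called. Here and below, the share of all genes called with this block is not given. SDHA had 951, 902 and 871 in the D1 cytoplasm, against 566, 419 and 477 at D0 (0.91 ± 0.23 SE, adjusted p = 0.011), and NDUFV1 had 14305, 17667 and 15214, against 9529, 8652 and 9147 (0.78 ± 0.18 SE, adjusted p = 0.00756). The D1 libraries lay above the D0 libraries in both genes, but the SDHA call was lost without the D0 library of letter B and that of NDUFV1 without the D1 library of letter B, and leaving out single libraries gave differences of 0.80 to 1.02 for SDHA and 0.70 to 0.85 for NDUFV1. The count was 1 without the D0 library of letter B, 2 without the D1 library of letter B, and 3 without the D0 library of letter C or the D1 library of letter A. At D2, 2 rose and 4 fell, with 24.8% of all genes called, and the letter block gave 11 calls. NDUFA10 had 3799, 3241 and 2842 at D2, against 6739, 6560.4 and 5941 at D0 (-0.97 ± 0.15 SE, adjusted p = 0.000101). The falls at D2 also included NDUFS1 (-0.67 ± 0.18 SE, lost without the D0 library of letter B) and ATP5F1A (-0.55 ± 0.14 SE).

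At D7, 39 members rose and 3 fell in the cytoplasm, with 34% of all genes called and a median of 0.97. With equal totals 36 rose and 9 fell, with 32.9% of all genes called. The median of all genes then moved to -0.32 and that of the members to 0.64. Complex IV had 12 of 12 higher, complex III 6 of 9, complex I 16 of 36, complex V 5 of 17 and complex II 0 of 4. COX4I1 had 78809, 46095 and 55726 in the D7 cytoplasm, against 38215, 32057 and 30453 at D0 (0.81 ± 0.26 SE, adjusted p = 0.0221). COX7C had 40740.0, 14557 and 16422 at D7, against 10523, 8889.8 and 7983 at D0 (1.23 ± 0.36 SE, adjusted p = 0.0156), and UQCRH, the hinge protein of complex III, had 83088, 23888 and 30819.7, against 19046, 14818 and 13043 (1.35 ± 0.40 SE, adjusted p = 0.0154). The letter A value was the highest of the 3 in each of these genes, and B and C also lay above D0. All 3 calls were lost without the D7 library of letter A or the D0 library of letter C, and that of COX4I1 also without the D0 library of letter B. Without single libraries the difference was 0.60 to 0.99 for COX4I1, 0.77 to 1.51 for COX7C and 0.81 to 1.71 for UQCRH. The largest rises were of members that share coding exons, COX6A1 (2.07 ± 0.47 SE), ATP5MG (2.00 ± 0.43 SE) and NDUFC2 (1.86 ± 0.42 SE). The falls included long members. UQCRC1 had 11382, 9865 and 11538 at D7, against 17930.2, 17019.5 and 17608 at D0 (-0.68 ± 0.20 SE, adjusted p = 0.0145), and ATP5F1A had 13791, 17452 and 17045, against 24664, 25081 and 23793 (-0.61 ± 0.14 SE). Both calls held without each library in turn. The count of 42 rested on single libraries, being 10 without the D7 library of letter A, 17 without the D0 library of letter C and 24 without the D0 library of letter B. The part of the high ribosomal protein share of letter A in these rises was not tested.

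After D7 the cytoplasmic level went down. At D14, 0 members rose and 10 fell against D0, with 12.8% of all genes called and a median of -0.48, and the letter block gave 21 calls. SDHA had 216, 251 and 198 in the D14 cytoplasm, against the D0 values above (-1.13 ± 0.23 SE, adjusted p = 0.0032), and UQCRC1 had 8715, 11538 and 7523, against 17930.2, 17019.5 and 17608 at D0 (-0.94 ± 0.20 SE, adjusted p = 0.00427). Both calls held without each library in turn, while the count was 4 without the D0 library of letter A or the D14 library of letter C and 5 without the D0 library of letter B, the D0 library of letter C or the D14 library of letter A. At D16, 0 rose and 14 fell, with 16.7% of all genes called, a median of -0.56 and 26 calls with the letter block. NDUFB10, an accessory subunit of complex I, had 10452, 10655 and 9739 at D16, against 22567, 19926 and 18769 at D0 (-0.99 ± 0.29 SE, adjusted p = 0.0261), a call that was lost without any 1 of the 6 libraries, and leaving out single libraries gave counts of 2 to 7, the lowest without the D0 library of letter A. Against D7, 67 of 78 members fell at D14 and 0 rose, with 35.6% of all genes called and a median of -1.36. The 11 that did not pass included NDUFS1, UQCRC1, UQCRC2, ATP5F1A and ATP5F1B, all long. The chain's share of the cytoplasmic libraries averaged 1.15% at D0, 1.28% at D1, 1.17% at D2, 1.55% at D7, 0.890% at D14 and 0.866% at D16, and its share of the heavy pool averaged 1.06%, 1.03%, 1.14%, 1.23%, 1.21% and 1.10% on the same days. The F test over the 5 later days called 71 of 78 members in the cytoplasm, with 61.5% of all genes called. NDUFA5 was not among them, and its letter B library was the lowest of the 3 at D1, D2, D14 and D16 but not at D7, with 3396, 850.0 and 2961 in letters A, B and C at D14, against 3589, 3535 and 2844 at D0.

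Before the drug, long members were more abundant in the heavy pool than in the cytoplasm and short ones less. At D0, 11 of 78 members were higher and 44 lower in the heavy pool than in the cytoplasm, with 45.8% of all genes called. ATP5F1B had 113176, 115849 and 121496 in the heavy pool, against 53313, 53165 and 55287 in the cytoplasm (1.12 ± 0.13 SE, adjusted p = 9.09e-08). ATP5F1E had 2629, 2759 and 2542 in the heavy pool, against 11782, 9270.3 and 7603 in the cytoplasm (-1.83 ± 0.31 SE, adjusted p = 2.35e-05), and UQCRQ, another small subunit of complex III, had 2500.1, 2421 and 2323, against 9385, 7801 and 7096 (-1.74 ± 0.29 SE, adjusted p = 2.35e-05). In all 3 genes the fractions did not overlap. Of the 21 members with a coding length under 300 bases, 20 were lower in the heavy pool and 0 higher, and of the 10 members with 1200 bases or more, 9 were higher and 0 lower. Over all genes 26.7% were higher and 19.1% lower. Without the D0 cytoplasmic library of letter A, 36 members were called in place of 55.

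Across members, the difference between heavy pool and cytoplasm at D0 went with coding length (Spearman rho 0.79 over 78 genes, and 0.49 over 12311 other protein-coding genes). The correlation is across genes of the same libraries, and genes are not independent replicates. The members' median coding length was 442.5 bases, against 1419 for the other genes, and the median difference was -1.15 for members and -1.12 for other genes under 300 bases, and 0.79 for members and 0.48 for other genes of 1200 bases or more. On D1, D2 and D7 rho was 0.71, 0.64 and 0.74 for the members and 0.58, 0.51 and 0.45 for the other genes. At D14 and D16 it was -0.14 and -0.23 for the members and -0.41 and -0.32 for the others. On those days the 2 fractions were more alike over all genes. The SD of the difference over members was 0.779 at D0, 0.803 at D1, 0.681 at D2, 0.944 at D7, 0.241 at D14 and 0.230 at D16, and over the other protein-coding genes it was 0.696, 0.913, 0.768, 0.928, 0.348 and 0.303. Ribosomal protein mRNAs took 11.4% to 12.3% of the heavy pool at D14, against 5.89% to 6.31% at D0, and 11.6% to 12.6% of the cytoplasm at D14, against 10.5% to 12.5% at D0. The part of this wider shift in the values of the chain was not tested.

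**Figure D4:**
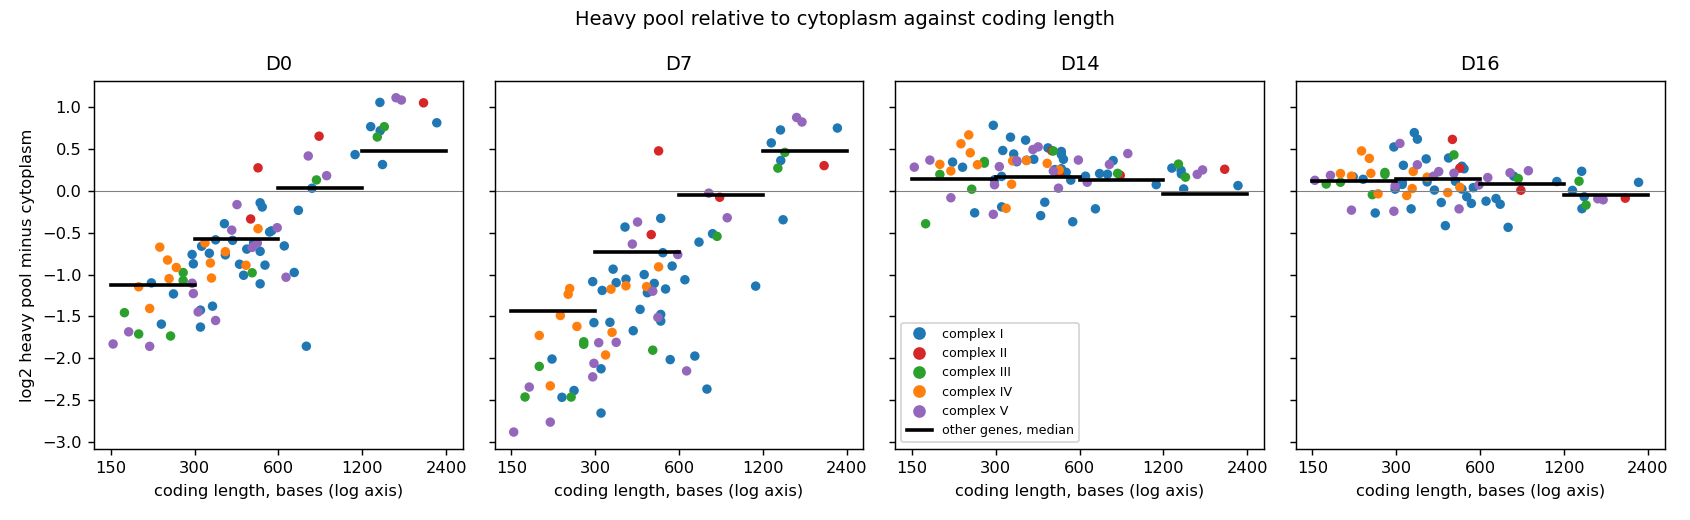
Log2 value in the heavy pool minus that in the cytoplasm against coding length (bases, log axis) for the 78 members, coloured by complex, at D0, D7, D14 and D16, with black bars at the median of other protein-coding genes in each length bin. The members run upward with length at D0 and D7 (rho 0.79 and 0.74) and lie in a narrow band at D14 and D16 (SD 0.241 and 0.230).

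The change in polysome association, the heavy pool's change from D0 minus the cytoplasm's, was tested in a single fit of both fractions. At D14, 41 of 78 members rose and 8 fell, with 28.3% of all genes called and a median of 0.97 for the members and -0.10 for all genes. With equal totals 51 rose and 3 fell, with 19.8% of all genes called. ATP5F1E rose most (2.12 ± 0.43 SE, adjusted p = 0.0011), followed, among members with a mean of at least 100 normalised counts, by ATP5MK (2.05 ± 0.43 SE), ATP5PF, a stalk subunit of the ATP synthase (1.91 ± 0.38 SE), and UQCR10 (1.91 ± 0.40 SE). In ATP5F1E the cytoplasm stood at 7507, 6362 and 7666 at D14, against 11782, 9270.3 and 7603 at D0, so that the fractions moved in opposite directions in their means. The falls were all of members with 1200 or more coding bases in their longest annotated isoform, NDUFA10 among them. They were led by ATP5F1B (-0.92 ± 0.18 SE, adjusted p = 0.000751) and ATP5F1A (-0.84 ± 0.15 SE). The fall of SDHA (-0.79 ± 0.27 SE) was lost without any 1 of 6 libraries. These were the libraries of letter B in all 4 groups and those of letter C in the heavy pool. Of the 21 members under 300 coding bases 18 rose, with a median of 1.47, against 1.16 for other genes of that length. At D16, 30 rose and 10 fell, with 29.5% of all genes called, and with equal totals 51 rose and 6 fell, with 23.8% called. The D14 count was 28 without the D0 cytoplasmic library of letter A.

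On the earlier days few members passed the test of association. At D1, 0 rose and 4 fell (UQCRC1, NDUFV1, ATP5F1B and NDUFA10), with 4.16% of all genes called. The D1 median was -0.53 for the members, 74 of 78 being below 0, and -0.10 for all genes. A fit of only the groups compared called 23 members, 1 higher and 22 lower. The share of all genes called in that fit is not given, and 4.16% is that of the main fit. At D2, 0 rose and 5 fell (NDUFV3, UQCRC1, UQCRC2, ATP5F1B and ATP5F1A), with 2.06% called. The D7 median was -0.52 for the members, 75 of 78 being below 0, and -0.09 for all genes. With equal totals the members' median was -0.09 at D1 and 0.09 at D7, and that of all genes 0.34 and 0.52. At D7, 0 rose and 1 fell (SDHB), with 3.95% called, and 3 members were called with the letter block. With equal totals 1 was higher and 0 lower at D7, with 10.0% of all genes called. Leaving out single libraries gave 0 to 9 calls at D1, 1 to 7 at D2 and 0 to 13 at D7. With equal totals limma called 0 members at D1 and at D2, where 0.277% and 0.831% of all genes were called. On those days 5 and 30 members had an unadjusted p under 0.05 with equal totals. The F test over all days called 69 of 78, with 54.1% of all genes called.

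Subunit c, which forms the rotating ring of the ATP synthase, is encoded by 3 genes that give the same mature protein from different precursors, ATP5MC1, ATP5MC2 and ATP5MC3. Their relative abundance per kilobase of exon shifted over the days in both fractions. ATP5MC2 took 29.6% to 30.4% of the 3 genes' heavy pool level at D0, 21.2% to 21.6% at D1, 39.1% to 41.7% at D14 and 42.3% to 44.1% at D16. In the cytoplasm it took 31.2% to 33.0% at D0, 26.4% to 27.0% at D1, 40.1% to 45.0% at D14 and 42.6% to 47.9% at D16. ATP5MC3 took 39.2% to 39.9% of the heavy pool level at D0, 48.5% to 50.5% at D1 and 29.8% to 32.4% at D14. The ranges of D1, D14 and D0 did not overlap. In the heavy pool ATP5MC2 had 3612, 3912 and 3924 at D1 and 10846, 11309 and 9728 at D14, against 6468, 6947 and 6419.7 at D0 (-0.79 ± 0.08 SE at D1 and 0.68 ± 0.08 SE, adjusted p = 9.42e-08 at D14), while ATP5MC1 (0.17 ± 0.08 SE) and ATP5MC3 (-0.10 ± 0.08 SE) did not pass at D14. At D16 ATP5MC1 (-0.18 ± 0.08 SE) and ATP5MC3 (-0.39 ± 0.08 SE) fell, but with equal totals they stood at 0.25 and 0.03.

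**Figure D5:**
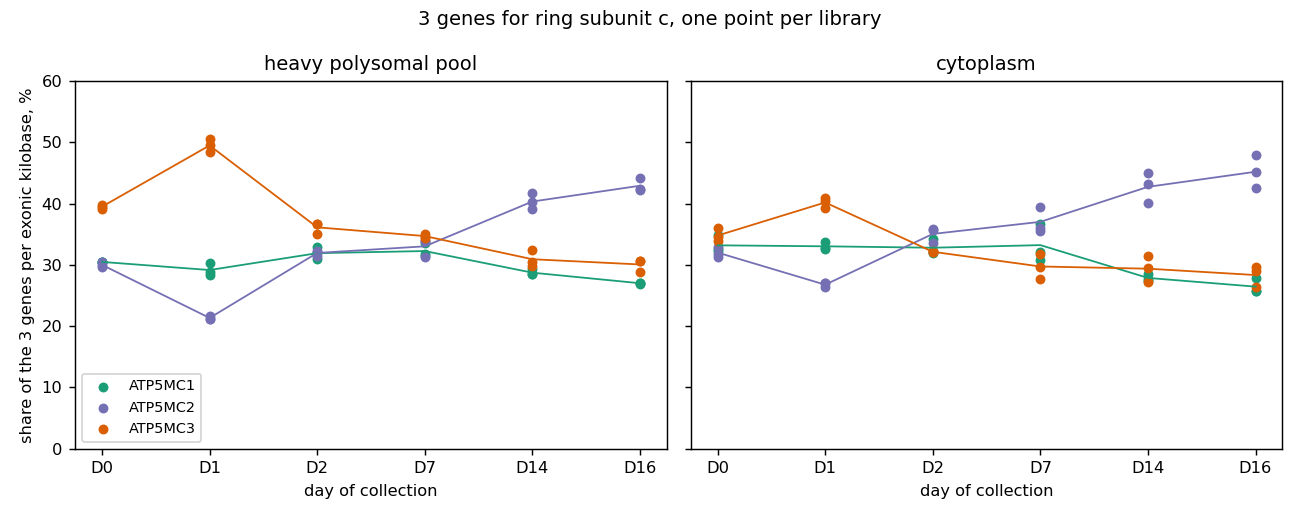
Share of ATP5MC1, ATP5MC2 and ATP5MC3 in the summed level of the 3 genes (percent, per kilobase of exon) in each library on the 6 days, for the heavy pool and the cytoplasm. ATP5MC2 was lowest at D1 (21.2% to 21.6% of the heavy pool level) and highest at D16 (42.3% to 44.1%).

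UQCRH and its near copy UQCRHL both rose in the heavy pool at D14 (0.97 ± 0.11 SE, adjusted p = 3.37e-08 and 1.00 ± 0.11 SE, adjusted p = 1.82e-08), but reads of the pair may be exchanged. COX7A2 and COX7A2L, a relative that takes part in joining complexes III and IV, both rose at D14 (1.15 ± 0.10 SE and 0.69 ± 0.09 SE). COX7A2L had fallen at D1, with 3437, 3469 and 3074 at D1, against 4046, 4312 and 4173 at D0 (-0.33 ± 0.09 SE, adjusted p = 0.00497), but with equal totals it stood at -0.13 and lost its call.

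Genes around the chain were examined in lists. As background, 34.4% of all genes rose and 37.6% fell in the D14 heavy pool, and 36.5% fell at D7. The 13 subunits encoded in mitochondrial DNA went the other way from the short nuclear subunits in the heavy pool, with 13 of 13 lower at D14 (median -3.39) and at D7 (median -3.28). MT-ATP8, a subunit of the ATP synthase, had 587, 1289 and 1103 in the D14 heavy pool, against 22462, 30001 and 40968 at D0 (-5.00 ± 0.26 SE, adjusted p = 4.18e-13). In the D14 cytoplasm 1 of the 13 was called. Their mRNAs took 0.151% to 0.258% of the heavy pool at D14, against 1.26% to 1.89% at D0, and 4.88% to 7.35% of the cytoplasm at D14, against 3.77% to 5.58% at D0. Per the labels' protocols, mitochondria were pelleted before the gradient, so these values measure what stayed in the lysate. Of the 5 chain proteins outside the rule, 3 rose and 1 fell in the heavy pool at D14. CYCS, cytochrome c, had 14009, 13781 and 15198 at D14, against 8013, 8175 and 8568 at D0 (0.80 ± 0.13 SE, adjusted p = 1.29e-05), and CYC1, cytochrome c1 of complex III, had 14887, 14524 and 13151, against 25569, 24725 and 25506 (-0.83 ± 0.08 SE, adjusted p = 8.39e-09).

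Of 58 assembly factors, which help to build the complexes, 32 rose and 17 fell in the heavy pool at D14 (median 0.46, against -0.02 for all genes). COX14, a complex IV factor, had 567, 669 and 612 at D14, against 164, 145 and 129 at D0 (2.07 ± 0.16 SE, adjusted p = 1.66e-10), and FOXRED1, a complex I factor, had 1143, 1097 and 996, against 3917, 3972 and 4289 (-1.91 ± 0.10 SE, adjusted p = 4.18e-13). All 18 tricarboxylic acid cycle genes fell at D14 (median -1.01), and all 18 fell at D16, where 36.6% did. FH, fumarase, had 1867, 1838 and 1751 at D14, against 6057, 6308 and 6719 at D0 (-1.81 ± 0.09 SE, adjusted p = 1.31e-13), and CS, citrate synthase, had 7229, 6505 and 7421, against 19215, 19951 and 21973 (-1.53 ± 0.09 SE, adjusted p = 2.56e-12). Among 16 regulators of mitochondrial genes, 14 fell and 0 rose. POLRMT, the mitochondrial RNA polymerase, had 2100.3, 2044 and 1888 at D14, against 11242, 10953 and 12357 at D0 (-2.52 ± 0.14 SE, adjusted p = 8.11e-13). In the D14 cytoplasm 6 of 18 cycle genes, 2 of 58 assembly factors and 1 of 16 regulators fell, and 0 rose, where 5.05% of all genes fell and 7.75% rose. The D14 change in the heavy pool went with coding length over protein-coding genes outside the members (Spearman rho -0.44). The part of coding length in the changes of these lists was not tested.

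RefSeq promoter windows (GRCh38.p14, 250 bases before to 50 after the start) were matched by symbol for 64 of the 78 members and searched on both strands for motifs of factors known to act on chain genes. A shortened motif of NRF1 (GCGCANGCG) was in 21 of 64 (32.8%), against 14.8% of 9968 promoters of other listed protein-coding genes. The ETS motif CCGGAAG was in 20 (31.2%), against 19.3%, and a shortened YY1 motif (AAGATGGCG) in 8 (12.5%), against 3.98%. GGGCGG (SP1) was in 40 (62.5%), against 71.8%, and CCAAT in 21 (32.8%), against 36.7%. These matches describe letters in the windows, not bound sites. A site that reads as the motif on both strands, or holds a further match that overlaps it, was counted for each match. The windows with the most NRF1 matches, 4 each, are those of SDHA, which fell in the heavy pool at D14, and NDUFB4, an accessory subunit of complex I that rose (0.44 ± 0.09 SE). The window with the most ETS matches, 3, is that of ATP5MK. They are shown with these motifs in capitals, SDHA at chr5:218070-218369 (plus strand), NDUFB4 at chr3:120596086-120596385 (plus strand) and ATP5MK at chr10:103396426-103396725 (minus strand).
SDHA: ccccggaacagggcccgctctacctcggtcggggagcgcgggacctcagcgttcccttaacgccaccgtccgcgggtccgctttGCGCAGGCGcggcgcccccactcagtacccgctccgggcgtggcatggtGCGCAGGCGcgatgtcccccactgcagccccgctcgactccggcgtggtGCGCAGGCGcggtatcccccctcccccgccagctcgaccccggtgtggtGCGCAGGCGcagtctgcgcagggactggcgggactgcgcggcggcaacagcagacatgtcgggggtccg
NDUFB4: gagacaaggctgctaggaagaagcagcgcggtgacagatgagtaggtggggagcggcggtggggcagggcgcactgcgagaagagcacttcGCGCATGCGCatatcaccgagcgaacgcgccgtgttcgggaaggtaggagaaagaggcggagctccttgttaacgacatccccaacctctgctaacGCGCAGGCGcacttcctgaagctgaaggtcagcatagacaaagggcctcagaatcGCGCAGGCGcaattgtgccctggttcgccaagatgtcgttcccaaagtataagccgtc
ATP5MK: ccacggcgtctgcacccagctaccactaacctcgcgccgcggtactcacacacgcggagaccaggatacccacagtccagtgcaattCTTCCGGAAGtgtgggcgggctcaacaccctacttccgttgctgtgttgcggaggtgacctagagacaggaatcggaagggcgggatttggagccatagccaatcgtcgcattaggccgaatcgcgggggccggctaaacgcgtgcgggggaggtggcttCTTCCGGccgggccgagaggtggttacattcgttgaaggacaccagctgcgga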

How the data were processed

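The values came from 36 libraries of HCT116 cells, heavy polysomal pools and cytoplasmic RNA. For their pipeline the submitters' processing notes name FastQC (0.11.9), cutadapt (3.2), STAR (2.7.9a), the build GRCh38, featureCounts from Subread (2.0.1) and DESeq2 (1.30.1). The authors deposited a signal, normalised counts, each being the reads of a gene over the size factor of its library. How strand was handled in featureCounts is not given in the sources used here, so reads of overlapping genes may be shared. Of 54 columns, 18 belong to none of the samples and were not used. No listed value lies below 1.004, so genes silent in any library could not be analysed here. Depth was summed after finding what 1 read is worth in each library, which made all values whole within 0.01. A symbol was found for 15856 identifiers and a GENCODE 29 entry for 15799.

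After a log2(value + 1) transform, genes reaching 10 in 3 or more libraries were kept. Group means were fitted with limma 3.58.1 in R 4.3.3 (lmFit, eBayes with trend), over the 18 libraries of 1 fraction or over all 36 for comparisons of fractions. Tests were two-sided, Benjamini-Hochberg adjustment ran over all genes tested, and the threshold was an adjusted p of 0.05. Changes on any day were asked with F tests. Comparisons with D0 share its libraries, so their lists were not set against each other. The limma steps were tested on simulated data for the D2 comparisons of the cytoplasm, the heavy pool and association, without a simulated difference between letters. The F tests, the other comparisons and the alternatives were not simulated. Summaries and figures used Python 3.11.15, pandas 2.3.3, scipy 1.17.1 and matplotlib 3.10.9.

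Members and lists were chosen with earlier results of these data known. The rule for names took, per comparison, up to 5 rises and 5 falls from called members that reached a mean of 100 in either group and kept their sign in all letters. It also took core subunits, paralogs, complex II, the extremes of each complex, members that overlap readthrough genes and up to 4 genes of each further list. COX7A2L at D1, COX7C, NDUFB4, and NDUFA5 in the cytoplasm were named after their values were seen. Values of 1 member and 1 epithelial marker are not reported here, though the member stayed in all counts. The motifs were shortened after a first search with longer ones.

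The letters pair samples because the labels call each a batch. As a check, deviations from group means were correlated between libraries of the same letter, with a mean r of 0.19 for 45 cytoplasmic pairs (27 over 0.1), 0.07 for 45 heavy pool pairs (20 over 0.1) and -0.0009 for 18 pairs across fractions (5 over 0.1). The fit had no letter block, and an alternative had one. Further alternatives were a pseudocount of 5, no filter, equal library totals, only the groups compared, each library left out in turn and, chosen after seeing the data, the 14 members that share coding exons left out.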

Additional observations from a re-analysis of the deposited data

Results flagged for a closer look

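The tests of a difference between the fractions' changes flagged the members below, as the change from D0 in the heavy pool differed from that in the cytoplasm. Values are the log2 change in the heavy pool minus that in the cytoplasm, and p-values are in the same limma fit of 36 libraries.

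At D14, 49 members were called. The named falls were ATP5F1B (-0.92), ATP5F1A (-0.84), SDHA (-0.79) and NDUFS1 (-0.75). The named rises were ATP5F1E (2.12), ATP5MK (2.05), UQCR10 (1.91), ATP5PF (1.91) and NDUFC1 (1.88).

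At D16, 40 members were called. ATP5F1B (-1.21), ATP5F1A (-1.19), SDHA (-1.14), UQCRC1 (-0.94) and NDUFV1 (-0.93) fell. NDUFA5 (2.08), ATP5MG (2.02), ATP5F1E (1.96), ATP5MK (1.87) and ATP5PF (1.86) rose, and the call of NDUFA5 was lost without the D16 cytoplasmic library of letter B, where leaving out single libraries gave 1.46 to 2.40.

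At D1, 4 members were called, all lower, UQCRC1 (-0.92), NDUFV1 (-0.86), ATP5F1B (-0.80) and NDUFA10 (-0.61). At D2, 5 were called, all lower, NDUFV3 (-1.03), UQCRC1 (-0.84), UQCRC2 (-0.75), ATP5F1B (-0.70) and ATP5F1A (-0.69). At D7, 1 was called, SDHB (-0.73). Of these 10 results, the call of NDUFV3 at D2 held without each library in turn, and the others were lost without at least 1.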

How the results depend on the processing

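Of 810 called results for members and named genes, 810 kept direction and call with a pseudocount of 5, without the low-value filter and with the replicate block. With only the groups compared in the fit 26 lost the call. Scaling to equal library totals ended 97 calls and turned the direction of 8, in the heavy pool NDUFV3 (0.12), SDHB (0.0786), ATP5PB (0.11), CYC1 (0.0307) and POLG (0.0622) at D2, NDUFS3 (0.0160) at D14, and ATP5MC1 (0.25) and ATP5MC3 (0.0295) at D16. By its construction this scaling moves the median of all genes, in the heavy pool to 0.13 at D1, 0.35 at D2, 0.18 at D7, 0.30 at D14 and 0.44 at D16.

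Counts of members called moved by more than 1.5 times in 13 cases. With equal totals they were 3 in the cytoplasm at D1 and 9 at D16, and 0 in association at D1 and at D2. The replicate block, which uses the letters that pair samples, gave 14 in the cytoplasm at D1, 11 at D2, 21 at D14 and 26 at D16, and 3 in association at D7, and moved no other count this far. With only the groups compared they were 21, 26 and 31 in the cytoplasm at D1, D14 and D16 and 23 in association at D1. The cause was not tested. Shares of all genes called with the block, or with only the groups compared, are not given here.

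Leaving out single libraries gave counts in the cytoplasm of 1 to 8 at D1, 4 to 9 at D2, 10 to 54 at D7, 4 to 9 at D14, 2 to 7 at D16, 47 to 67 at D14 against D7 and 63 to 73 on any day. In the heavy pool they were 18 to 25, 46 to 49, 45 to 54, 64 to 68 and 57 to 64 on the 5 days, 48 to 51 at D14 against D7 and 75 to 77 on any day. They were 36 to 54 for heavy pool against cytoplasm at D0, and 0 to 9, 1 to 7, 0 to 13, 28 to 49 and 29 to 42 for association on the 5 days and 67 to 73 on any day. Of 5694 single-gene results without a library, 776 lost the call and 0 turned. Without the 14 members that share coding exons, an alternative chosen after seeing the data, 58 of 64 were called in the heavy pool at D14 (41 higher, 17 lower) and 33 in the cytoplasm at D7 (30 higher, 3 lower). The count tests planned as alternatives (edgeR and DESeq2) were not run. Low-level members such as NDUFV2 and NDUFA13, with under 100 normalised counts in the heavy pool, are limited by depth.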
